A study of Mus musculus with 6 samples.

Results

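Prune2, Neto2, Slc15a5, Fgfbp1, Dusp14, Sctr, Slc30a2 and Cbr2 are 8 genes whose RNA was much lower in thyroid hormone receptor alpha mutant muscle than in control muscle, and none of them encodes a contractile or metabolic protein typical of muscle fibres. These 8 of the 17034 genes with values were selected on their decrease in the libraries labelled TRa_mKO, so that decrease is given here as a description, with no test. The study measured polyadenylated RNA of the gastrocnemius, a calf muscle of mixed but mainly fast fibre types, in male mice 8 weeks old. The TRa_mKO mice (Myf5-Cre; Thrafl/fl) carried floxed Thra and a Cre transgene driven by Myf5, a gene of early myogenic cells. The Wild-type (Thrafl/fl) littermates, WT below, carried the same floxed Thra and no Cre. Each genotype had 3 mice and 3 libraries. Presence of the Cre transgene and loss of Thra went together, and their parts in a difference cannot be told apart.

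Thyroid hormone receptor alpha is a nuclear receptor that binds DNA near its target genes, activates them when hormone is bound and can repress them when it is not. In skeletal muscle it is the main thyroid hormone receptor, and hormone action there favours fast contractile proteins and a high metabolic rate. The 8 genes belong to different families. There are 2 membrane transporters (Slc15a5, Slc30a2), a receptor and a receptor accessory protein (Sctr, Neto2), a secreted carrier of growth factors (Fgfbp1), a phosphatase (Dusp14), a carbonyl reductase (Cbr2) and a large scaffold protein (Prune2). A muscle role has been described for Fgfbp1, which muscle fibres secrete and which helps to maintain the neuromuscular junction, so the absence of a muscle role does not hold for it.

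Libraries held 12390527 to 14488500 counts in total, a ratio of 1.17 between the largest and the smallest. Thra itself was not lower in the libraries labelled TRa_mKO: it measured 78.8, 92.8 and 96.9 CPM (read counts scaled to a common library size) in WT and 129, 118 and 101 CPM in TRa_mKO. Its log2 fold change was 0.37 (SE 0.12, edgeR adjusted p = 0.117). A gene-level count adds all exons, so it does not check the deletion, and each direction below rests on the labels. Skeletal muscle markers such as Acta1 and Ckm summed to 91580 to 133400 CPM, whereas neuronal markers stayed at or below 1.20 CPM in every library. Haemoglobin transcripts were highest in WT replicate 1 and TRa_mKO replicate 3, at 1742 and 1599 CPM against 453 to 907 CPM in the other libraries. Muscle tissue was sequenced whole, so a change in the number of cells of a type and a change in RNA per cell cannot be told apart.

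All 8 genes were lower in each TRa_mKO library than in each WT library. That ordering held for 10.1% of the 13118 genes tested, and 1.65% of the tested genes were called lower (216 genes, edgeR quasi-likelihood test, Benjamini-Hochberg adjusted p below 0.05). Both shares are background only, since the 8 genes were chosen by this contrast. The median log2 fold change of the 8 genes was -2.75, against 0.00 (-0.0003) for all tested genes. Together they summed to 121.0, 135.6 and 161.2 CPM in WT and to 24.0, 26.9 and 30.6 CPM in TRa_mKO. All 8 passed the filter on low counts, which asked for about 0.723 CPM in 3 libraries. Neto2 and Slc15a5 passed it through the WT libraries only. None of the 8 had a fractional count, so none showed reads shared with another feature.

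**Figure D1:**
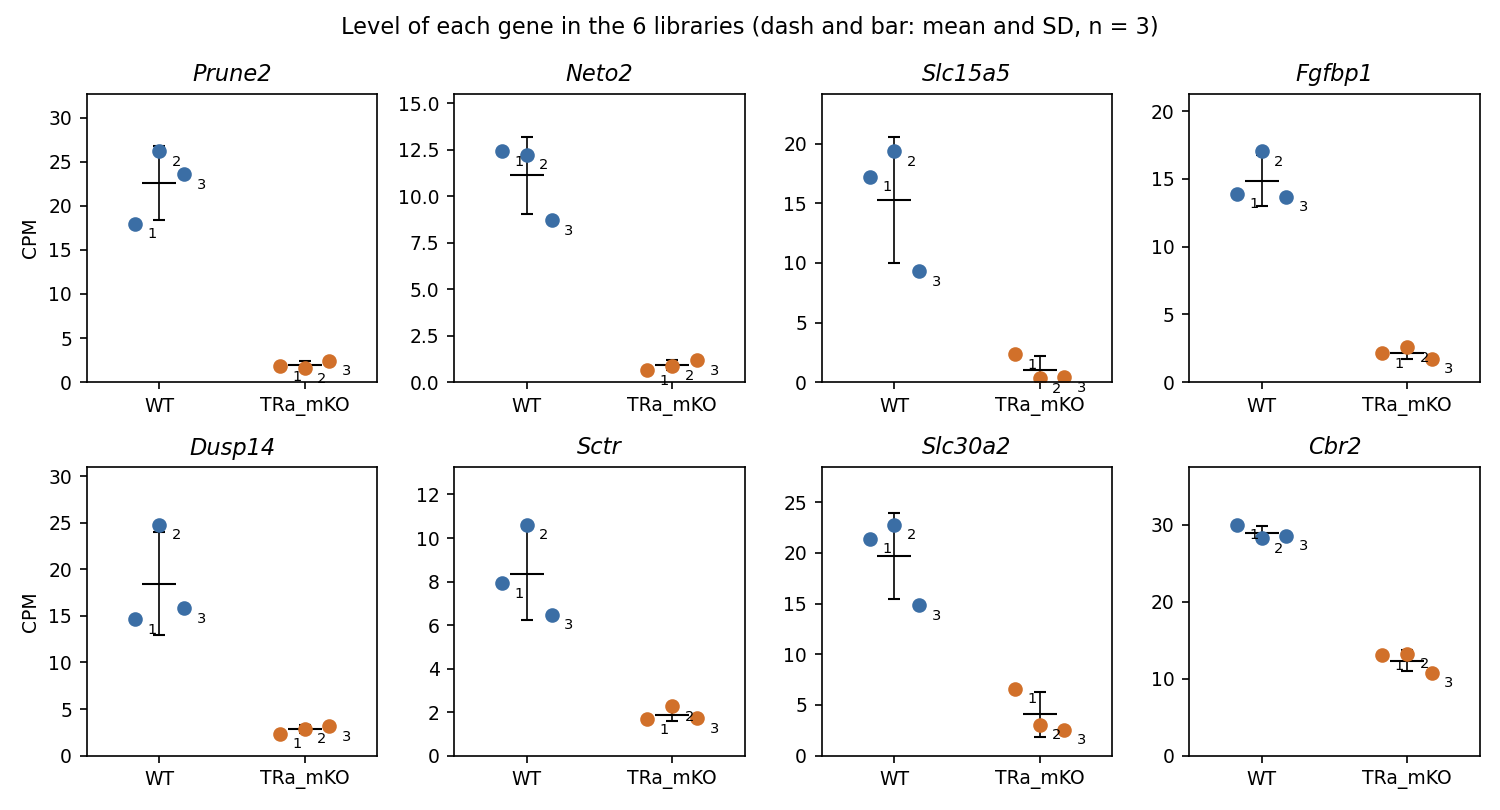
CPM of each gene (y axis, from 0) in the 3 WT and the 3 TRa_mKO libraries. Numbers beside the points are replicate numbers, and the dash with its bar is the mean and SD of 3 libraries. In all 8 panels the WT points lie above the TRa_mKO points. For Slc15a5 and Slc30a2, TRa_mKO replicate 1 stands above the other mutant libraries.

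Slc15a5 (gene ID 277898) is an orphan member of the family that carries small peptides and histidine into cells. It measured 17.2, 19.4 and 9.31 CPM in WT, against 2.34, 0.323 and 0.415 CPM in TRa_mKO. WT replicate 3 was low and TRa_mKO replicate 1 was high within their groups, and the groups did not overlap. The level was 14.6-fold higher in WT (log2 fold change -3.87, SE 0.61; 15.3 ± 5.29 against 1.03 ± 1.14 CPM, SD, n = 3). TRa_mKO replicates 2 and 3 rested on 4 and 6 reads. Without TRa_mKO replicate 1 the log2 fold change was -5.32, a 39.9-fold difference. The order of the folds of Slc15a5, Neto2 and Prune2 was not stable. With TRa_mKO replicate 2 left out Neto2 came first (log2 fold change -3.58, against -3.49 for Slc15a5), and likewise with TRa_mKO replicate 3 left out (-3.84 against -3.46). With both haemoglobin-rich libraries left out Prune2 came first (-3.84 against -3.37).

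Slc30a2 (gene ID 230810) encodes ZnT2, which moves zinc from the cytosol into vesicles and is best known for loading zinc into milk. Its levels were 21.4, 22.8 and 14.9 CPM in WT, against 6.59, 3.07 and 2.56 CPM in TRa_mKO. WT replicate 3 was again the lowest of its group and TRa_mKO replicate 1 the highest of its group. WT held 4.81-fold more (log2 fold change -2.27, SE 0.34; 19.7 ± 4.24 against 4.07 ± 2.2 CPM).

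Neto2 (gene ID 74513) codes for a membrane protein that modulates kainate-type glutamate receptors in the brain and also binds the chloride transporter KCC2. In WT it measured 12.4, 12.2 and 8.71 CPM, and in TRa_mKO 0.659, 0.888 and 1.18 CPM. Every WT library was at least 7.41-fold above the highest TRa_mKO library. The fold between the genotypes was 12.1 (log2 fold change -3.59, SE 0.25).

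Sctr (gene ID 319229) encodes the secretin receptor, a class B receptor that raises cyclic AMP and is known from pancreatic and bile ducts. Its levels were 7.93, 10.6 and 6.47 CPM in WT, against 1.68, 2.26 and 1.73 CPM in TRa_mKO. The WT libraries were spread more widely than the mutant ones, with a lowest WT value 2.86-fold above the highest TRa_mKO value. WT exceeded TRa_mKO 4.40-fold (log2 fold change -2.14, SE 0.24).

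Fgfbp1 (gene ID 14181) encodes a secreted protein that releases fibroblast growth factors from heparan sulphate in the matrix. Its levels were 13.9, 17.04 and 13.7 CPM in WT, against 2.12, 2.58 and 1.73 CPM in TRa_mKO. Both groups were tight, and the lowest WT library was 5.29-fold above the highest TRa_mKO library. The difference was 6.95-fold (log2 fold change -2.80, SE 0.18; 14.9 ± 1.88 against 2.15 ± 0.426 CPM).

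Dusp14 (gene ID 56405), also known as MKP6, encodes a small dual specificity phosphatase that acts on MAP kinases and on the TAK1 adaptor TAB1. It measured 14.7, 24.8 and 15.8 CPM in WT, against 2.34, 2.91 and 3.18 CPM in TRa_mKO. WT replicate 2 stood above the other WT libraries. The fold was 6.52 (log2 fold change -2.71, SE 0.23).

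Prune2 (gene ID 353211), also known as BMCC1, codes for a large protein with a BCH domain, a module through which small GTPase signalling is organised. It measured 18.0, 26.2 and 23.6 CPM in WT, against 1.83, 1.61 and 2.42 CPM in TRa_mKO. The lowest WT library was 7.42-fold above the highest TRa_mKO library, the widest gap of the 8 together with that of Neto2. WT held 11.4-fold more (log2 fold change -3.51, SE 0.20; 22.6 ± 4.2 against 1.96 ± 0.418 CPM).

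Cbr2 (gene ID 12409) encodes carbonyl reductase 2, an NADPH-dependent enzyme described in lung, and was the mildest and most even of the 8. It measured 30.0, 28.3 and 28.6 CPM in WT, against 13.0, 13.2 and 10.8 CPM in TRa_mKO. TRa_mKO kept 42.7% of the WT mean, compared with 6.71% to 22.7% for the other 7 genes. The fold was 2.35 (log2 fold change -1.23, SE 0.11; 29 ± 0.926 against 12.4 ± 1.36 CPM). Cbr2 transcripts are also known from macrophages and fat. Summed macrophage markers were 57.4 to 87.1 CPM in WT and 57.0 to 88.0 CPM in TRa_mKO, and adipocyte markers 607 to 844 CPM and 502 to 691 CPM. Of 9 macrophage and 7 adipocyte markers tested, 0 passed the edgeR test and 0 had an unadjusted p under 0.05.

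Of the genes called lower, 206 had a mean log2 CPM that reached 1, and there the 8 genes took ranks 1, 3, 4, 7, 9, 11, 12 and 34 by fold. The first genes after Sctr that are not among the 8 were Ces1d and Odf3l2, at 4.26-fold and 4.19-fold. Cbr2 stood beside Kcnn2 (log2 fold change -1.24) and Mgst1 (-1.23). Among all 13118 tested genes, called or not, the 8 took ranks 2, 4, 5, 10, 12, 17, 20 and 71 by fold, with Cbr2 at 71. Both sets of ranks describe the choice and are no test of it. The choice therefore has no fixed limit of size, and Cbr2 was included from further down the order.

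**Figure D2:**
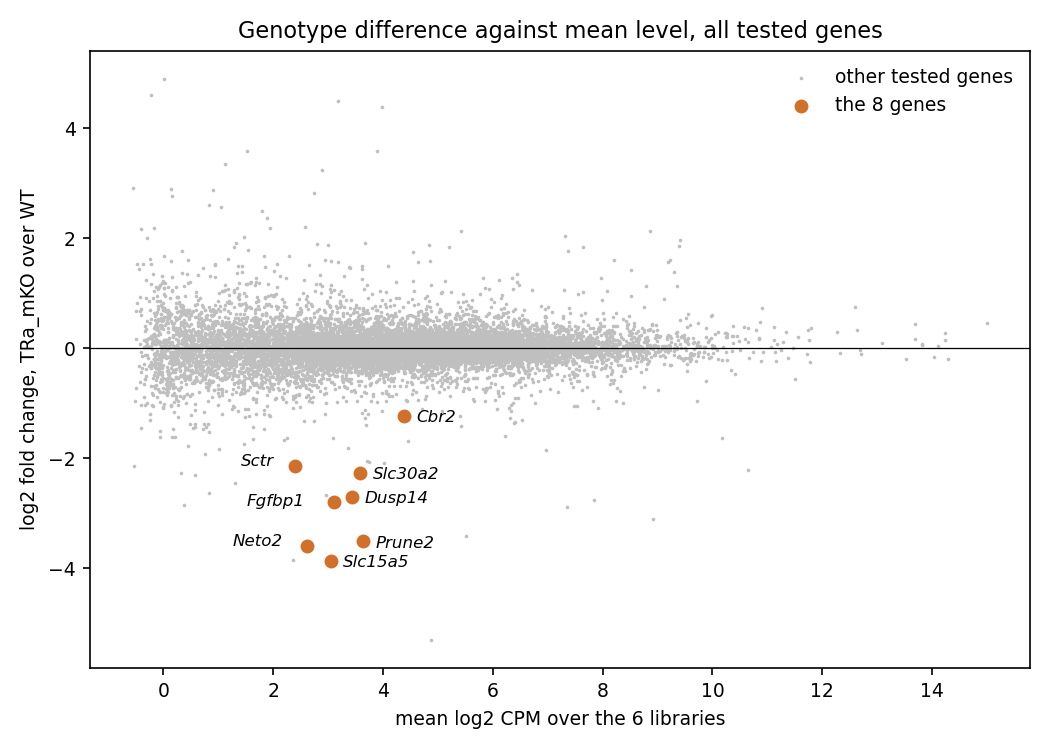
Log2 fold change of TRa_mKO over WT (y axis) against the mean log2 CPM over the 6 libraries (x axis) for the 13118 tested genes in grey and the 8 genes in orange. The 8 genes lie between -1.23 and -3.87 on the y axis, at low to middle mean levels.

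Levels of different genes can be compared only per transcript length. On that scale, CPM per kilobase of the longest annotated transcript, Cbr2 was the most abundant of the 8 in WT, at 26.1. That was above 84.2% of the 12828 tested genes with a length. Dusp14 followed at 11.7, then Fgfbp1 at 6.79, Slc30a2 at 6.24, Slc15a5 at 6.22 and Sctr at 4.14. Neto2 and Prune2 were lowest, at 1.98 and 1.80, near the 23.7 and 22.0 percentiles. The median of the tested genes with a length was 6.18. Which transcript was expressed was not determined, and a shorter one would give a higher value. Fgfbp1, Slc30a2 and Slc15a5 did not differ beyond the spread of their WT libraries, which was 12.6%, 21.5% and 34.6% of the mean. In TRa_mKO the same quantity was 0.156 for Prune2 and 0.162 for Neto2 and was 11.1 for Cbr2.

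The spread between mice within a genotype is given here as a description, beside the spread that the number of reads alone would give. In TRa_mKO the coefficient of variation was 21.4% for Prune2, 28.6% for Neto2, 19.9% for Fgfbp1, 15.2% for Dusp14 and 16.9% for Sctr, beside 19.4%, 28.5%, 18.7%, 16.2% and 19.9% from counting. In WT the same 5 genes varied by 18.6%, 18.8%, 12.6%, 30.0% and 25.2%, each above its counting value of 5.66%, 8.11%, 6.996%, 6.30% and 9.38%. Slc15a5 and Slc30a2 varied by 111% and 53.9% in TRa_mKO (counting 26.7% and 13.5%), where Slc15a5 rested on 4 to 32 reads a library, and by 34.6% and 21.5% in WT (counting 6.95% and 6.11%). Cbr2 varied by 3.20% in WT and 11.0% in TRa_mKO, beside 5.002% and 7.76% from counting. Over both genotypes, the biological coefficient of variation in the edgeR fit was 55.5% for Slc15a5 and 27.4% for Slc30a2, above 99.7% and 97.4% of the tested genes. That of Cbr2 was 8.74%, below the median of 10.75%.

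WT replicate 2 was the highest WT library for 6 of the 8 genes, and WT replicate 3 was the lowest for 5. Summed skeletal muscle markers were also highest in WT replicate 2 and lowest in WT replicate 3 among the controls, at 122400 and 91580 CPM. Between the genotypes these markers had a median log2 fold change of 0.31, above 0, unlike the 8 genes. Of 8 muscle markers tested, 0 passed the edgeR test and 3 had an unadjusted p under 0.05. Among the mutant libraries, TRa_mKO replicate 1 had the highest muscle marker sum, 133400 against 116600 and 118400 CPM, and the lowest endothelial marker sum, 635 against 705 and 884 CPM. In WT the endothelial sum was 889 to 1086 CPM, above every mutant library, although 0 of 6 endothelial markers passed the edgeR test (5 had an unadjusted p under 0.05). Schwann cell markers ranged from 325 to 1323 CPM in WT and from 510 to 694 CPM in TRa_mKO. Their median log2 fold change was -0.58, and of 8 tested 0 passed (1 at an unadjusted p under 0.05). Smooth muscle and pericyte markers summed to 1508 to 1591 CPM in WT and 1242 to 1498 CPM in TRa_mKO (0 passed, 2 at an unadjusted p under 0.05). Summed satellite cell markers were higher in every mutant library, at 79.4 to 82.6 CPM against 62.2 to 72.3 CPM in WT, and 1 of 5 passed, Pax7 (log2 fold change 0.66, edgeR adjusted p = 0.0261). Much of that sum was Sdc4, counted below among the relatives of Fgfbp1 as well. Sdc4 measured 33.7 to 43.1 CPM in WT and 42.8 to 44.0 CPM in TRa_mKO (edgeR adjusted p = 0.304). The part of these marker levels in the differences of the 8 genes was not tested.

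Other genes followed the 8 closely over the 6 libraries. Likeness was measured as the root mean square distance between gene-centred log2(CPM + 0.5) values, among 12009 tested genes whose mean log2 CPM reached 1, so it is small for genes with a like fold and like libraries. Hr, the thyroid-responsive gene of the corepressor Hairless, was nearest to both Prune2 (distance 0.22) and Neto2 (0.23), and Prune2 and Neto2 were second to each other (0.29). Fgfbp1 and Dusp14 were nearest to each other (0.24), followed by Gpt2, a mitochondrial alanine aminotransferase, for Fgfbp1 (0.25) and by Sctr for Dusp14 (0.36). Sctr was nearest to Odf3l2 (0.13) and Phlda3 (0.18), and Cbr2 to Rilpl1 (0.10) and Vldlr, a lipoprotein receptor (0.11).

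Slc15a5 was nearest to Smox, spermine oxidase (0.21), and Nmrk2, a nicotinamide riboside kinase of muscle (0.24). Smox, whose counts include shared reads, had 955, 1020 and 633 CPM in WT, against 175, 63.4 and 65.2 CPM in TRa_mKO. Nmrk2 had 335, 358 and 168 CPM in WT, against 78.5, 15.7 and 21.3 CPM in TRa_mKO. Slc30a2 was nearest to Actr3b, an actin-related protein (0.28), with 16.99, 20.1 and 10.8 CPM in WT, against 8.86, 2.74 and 1.87 CPM in TRa_mKO, and then to Phlda3 (0.33). In Slc15a5, Slc30a2, Smox, Nmrk2 and Actr3b alike, TRa_mKO replicate 1 was the highest mutant library and WT replicate 3 the lowest control. These genes were picked for their likeness, so the likeness itself is no result.

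**Figure D3:**
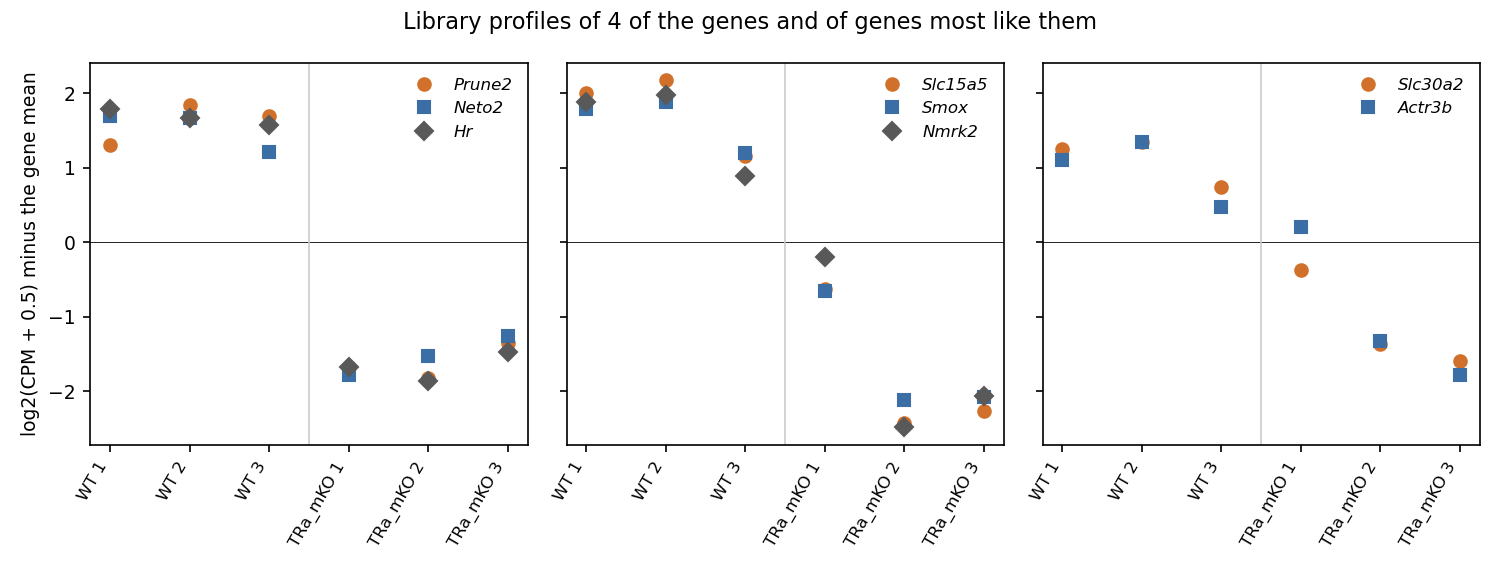
Log2(CPM + 0.5) minus the gene's mean over the 6 libraries (y axis) in each library (x axis), for Prune2 and Neto2 with Hr, for Slc15a5 with Smox and Nmrk2, and for Slc30a2 with Actr3b. TRa_mKO replicate 3 is the highest mutant library for each gene of the first panel, and TRa_mKO replicate 1 is the highest for each gene of the other panels.

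The tested protein-coding genes next to the 8 on their chromosomes were taken from RefSeq order (GRCm38.p6), 16 in all. This set was not used in choosing the 8, but it was not planned and was taken with earlier results of these data known. Of the 16 neighbours, 3 fell (18.8%, where 1.65% of all tested genes were called lower) and 0 rose, where 2.52% of all were called higher, and 5 of 16 had an unadjusted p under 0.05, beside 17.9% of all tested genes. Their median log2 fold change was -0.19, against -0.0003 for all tested genes, and 12 of 16 were below 0. A median that near 0 places about as many of all tested genes below 0 as above it.

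The neighbour with the largest fall was Tmem37, a calcium channel subunit gene beside Sctr. It measured 11.9, 16.1 and 10.0 CPM in WT, against 4.69, 3.39 and 4.15 CPM in TRa_mKO, with no overlap between the genotypes. WT held 3.09-fold more (log2 fold change -1.63, SE 0.20, edgeR adjusted p = 0.00265), and this call held under each of 16 alternatives. Mgst1, a microsomal glutathione transferase gene beside Slc15a5, measured 75.8, 53.6 and 47.5 CPM in WT, against 32.2, 23.2 and 19.9 CPM in TRa_mKO (2.35-fold higher in WT, SE 0.23, edgeR adjusted p = 0.0307). Its call ended without WT replicate 2 (adjusted p = 0.0615), TRa_mKO replicate 2 (0.12) or TRa_mKO replicate 3 (0.0947) and without a filter on low counts (0.0589).

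Tada2a, a subunit gene of histone acetyltransferase complexes beside Dusp14, had 21.0, 34.0 and 28.7 CPM in WT, against 18.0, 17.6 and 17.5 CPM in TRa_mKO (log2 fold change -0.66, SE 0.16, edgeR adjusted p = 0.047). That call ended without WT replicate 2 or 3 or any single TRa_mKO replicate (adjusted p = 0.0975 to 0.16) and with limma-voom (0.0746). With replicate 2 of either genotype or TRa_mKO replicate 3 left out, the count of lower neighbours was 1, and it was Tmem37. For Prune2, Neto2, Fgfbp1, Slc30a2 and Cbr2, neither neighbour passed. Vps13a beside Prune2 was level, at 26.4 ± 1.34 CPM in WT and 26.5 ± 0.752 CPM in TRa_mKO (log2 fold change 0.01, SE 0.09), and Dnaja2 beside Neto2 measured 284 ± 21.2 and 223 ± 20.6 CPM (edgeR adjusted p = 0.109). The set holds only the nearest tested gene on each side. Gpt2, named above for its likeness to Fgfbp1, is the next protein-coding gene with values beyond Dnaja2. It measured 398 CPM in WT and 58.5 CPM in TRa_mKO (6.80-fold higher in WT, log2 fold change -2.77, SE 0.14). Gpt2 was named with this decrease known, and the other genes in second place were not counted.

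**Figure D4:**
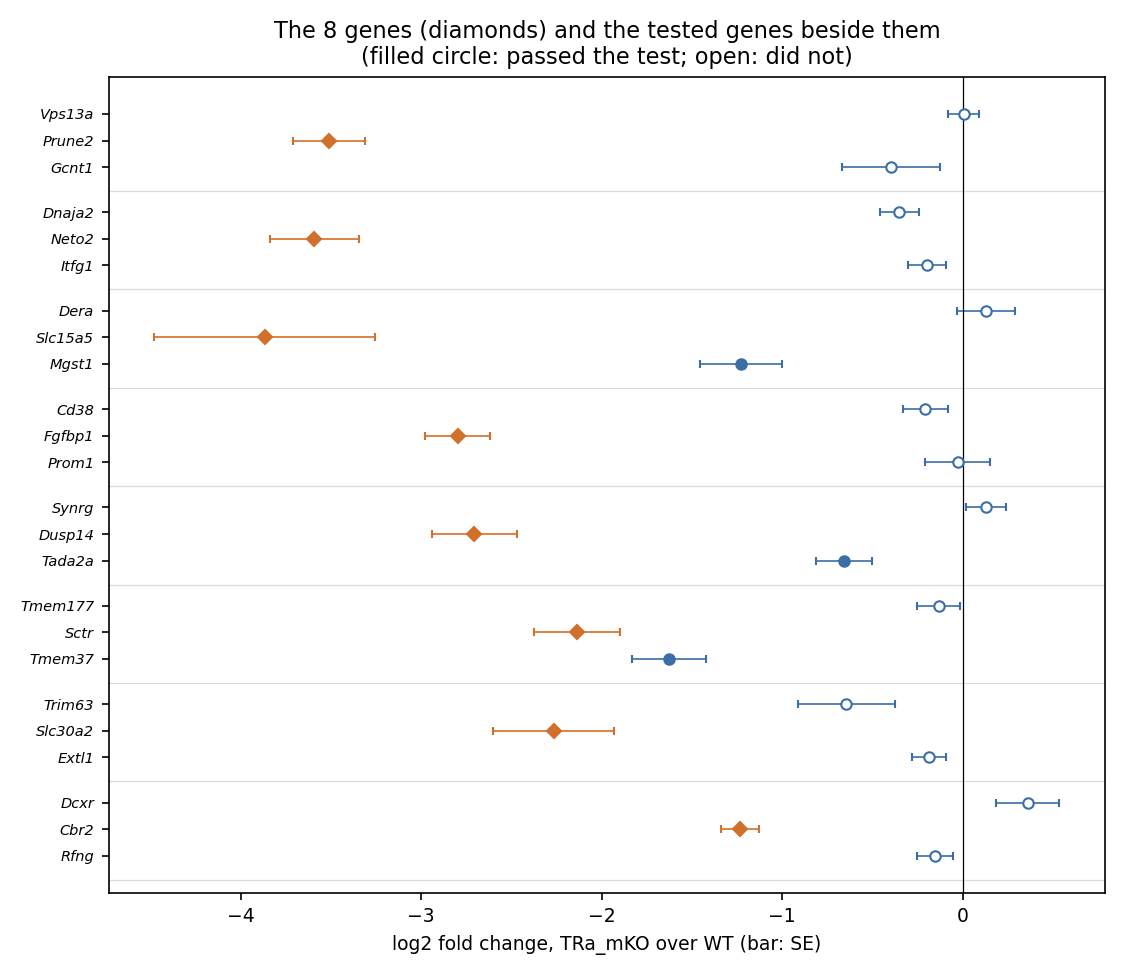
Log2 fold change of TRa_mKO over WT with its SE (x axis) for each of the 8 genes (diamonds) and the tested gene on either side of it (circles). Filled circles, Mgst1, Tada2a and Tmem37, passed the edgeR test, and the other 13 neighbours did not.

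RefSeq start site windows (GRCm38.p6) were found for 7 of the 8 genes, 8 windows in all, since Neto2 has 2. In the 250 bases before each start, guanine and cytosine made up 37.2% (Slc15a5) to 72.0% (Prune2 and 1 window of Neto2), against a median of 52.4% over 32851 windows. Motifs were searched on both strands. The nuclear receptor hexamer AGGTCA was in 0 of the 8 windows and in 14.0% of all windows, the TATA box TATAAA in 0 and 12.4%, and the MEF2 site in 0 and 2.92%. The E-box CANNTG was in 7 of 8 windows and in 66.2% of all, its form CAGCTG in 1 and 13.0%, and GGGCGG in 4 and 32.7%. The CArG box, bound by serum response factor, was in 2 of 8, Prune2 and Cbr2, and in 1.47% of all. No match says only that these letters are not in this window, and 4 of the 8 windows lie wholly inside the annotated span of a longer transcript of their gene. The Neto2 window at 72.0% and those of Fgfbp1 and Cbr2 overlap the span by 28, 29 and 4 bases. Only the Slc15a5 window lies wholly outside it.

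The CArG matches are shown because they were the only rare motif found here in more than 1 of the windows. Capitals mark the match, 80 bases before the start in Prune2 (GRCm38.p6, chr19:16956028-16956057, plus strand) and 108 bases before it in Cbr2 (chr11:120732026-120732271, minus strand). The Slc15a5 window (chr6:138079917-138080166, minus strand) is shown as the one poorest in guanine and cytosine, and holds none of the motifs except CANNTG. Each is written 5′ to 3′ and lies before the annotated start, that of Prune2 within the span of a longer transcript. The Cbr2 stretch stops 4 bases short of the start, since those bases lie inside the annotated span of the gene.
Prune2: cacccactttCCTTATTAGGacagagtcgg
Cbr2: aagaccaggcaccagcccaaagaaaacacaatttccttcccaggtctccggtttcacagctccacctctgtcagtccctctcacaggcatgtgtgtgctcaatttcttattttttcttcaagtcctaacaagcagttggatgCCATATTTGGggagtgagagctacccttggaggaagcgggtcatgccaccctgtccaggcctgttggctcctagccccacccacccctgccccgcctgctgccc
Slc15a5: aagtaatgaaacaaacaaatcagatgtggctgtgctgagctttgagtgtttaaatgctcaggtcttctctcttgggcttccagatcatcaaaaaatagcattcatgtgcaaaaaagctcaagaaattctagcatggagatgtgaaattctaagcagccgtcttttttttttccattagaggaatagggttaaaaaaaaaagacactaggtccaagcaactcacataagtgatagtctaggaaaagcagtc

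Relatives of each gene, by family or pathway, asked whether the decrease extended beyond the gene itself. Of 190 relatives listed, 143 were tested; 6 rose and 1 fell (4.20% and 0.699%, 4.90% in all), beside 2.52%, 1.65% and 4.17% of all tested genes. The share called was thus near that of all genes. At an unadjusted p under 0.05 there were 34 of 143 relatives, beside 17.9% of all tested genes. The median log2 fold change of the relatives was 0.03. DESeq2 called 12 of them (10 higher, 2 lower), and edgeR called 2 when WT replicate 3 was left out and 12 when TRa_mKO replicate 1 was left out. Among all genes the split was 331 higher and 216 lower, and 213 higher and 255 lower with library size alone.

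Prune2 has few relatives with the BCH domain or the DHH phosphoesterase fold, and of 4 tested 1 rose and 0 fell (1 at an unadjusted p under 0.05). Atcay, which encodes the brain BCH protein caytaxin, rose from 14.4 ± 2.4 to 43.6 ± 15.5 CPM (log2 fold change 1.59, SE 0.29, edgeR adjusted p = 0.036). Its call ended when any single WT library, or TRa_mKO replicate 1 or 2, was left out (adjusted p = 0.0581 to 0.128) and without a filter on low counts (0.0933). Prune1, the short paralogue, measured 109 ± 28.6 and 142 ± 15.8 CPM with shared reads, and Bnip2 114 ± 3.33 and 109 ± 4.05 CPM.

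For Neto2, 5 of 16 ionotropic glutamate receptor subunits and partners were abundant enough to test and 0 passed (1 at an unadjusted p under 0.05). The kainate receptor subunit gene Grik5 measured 8.2 ± 0.667 CPM in WT and 8.25 ± 1.01 CPM in TRa_mKO. Slc12a5, the gene of KCC2, measured 3.99 ± 0.412 and 2.63 ± 0.322 CPM (log2 fold change -0.60, SE 0.20, edgeR adjusted p = 0.138). Gria3, an AMPA receptor subunit gene, measured 2.41 ± 0.884 and 2.94 ± 0.502 CPM.

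Among the other peptide and histidine transporters, 0 of 3 tested passed (1 at an unadjusted p under 0.05). Slc15a2 measured 28 ± 14.8 and 41.8 ± 10.3 CPM, Slc15a4 26.1 ± 3.17 and 20.2 ± 3.65 CPM, and Slc15a3 0.898 ± 0.324 and 0.681 ± 0.209 CPM in WT and TRa_mKO. None was near the size of the Slc15a5 decrease.

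The Fgfbp1 list of fibroblast growth factors, receptors, coreceptors and feedback regulators had 29 tested genes, of which 3 rose and 0 fell (8 at an unadjusted p under 0.05). Those of the 8 that did not pass went both ways. Fgfr1 measured 168 CPM in WT and 122 CPM in TRa_mKO (log2 fold change -0.46, edgeR adjusted p = 0.101). Gpc1, with shared reads, measured 215 and 164 CPM (-0.39, adjusted p = 0.125). Spred2 was also lower (-0.32, 0.0862), whereas Sdc2 (0.47, 0.0715) and Spry1, with shared reads (0.43, 0.0789), were higher. Kl, the gene of the FGF23 coreceptor klotho, rose 3.57-fold from 0.996 ± 0.342 to 3.62 ± 0.802 CPM (SE of the log2 value 0.30, edgeR adjusted p = 0.00895). Fgfrl1, a receptor without a kinase domain, rose 1.46-fold (21.9 ± 1.41 to 31.9 ± 2.25 CPM, SE 0.09, adjusted p = 0.0123). Fgf11, which encodes an intracellular member of the family, rose 1.67-fold (8.8 ± 1.17 to 14.7 ± 1.86 CPM, SE 0.15, adjusted p = 0.0214). The Fgf11 call ended without WT replicate 3 (edgeR adjusted p = 0.0731) or TRa_mKO replicate 2 (0.106), and those of Kl and Fgfrl1 when both haemoglobin-rich libraries were left out together (0.0546 and 0.0591).

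Of 32 tested dual specificity phosphatases, MAP kinases and TAK1 complex genes, 0 rose and 1 fell (7 at an unadjusted p under 0.05). Dusp13, a phosphatase gene of skeletal muscle and testis, fell from 149 ± 9.5 to 105 ± 10.6 CPM (log2 fold change -0.50, SE 0.10, edgeR adjusted p = 0.0241). Its call ended when replicate 2 or 3 of either genotype was left out (adjusted p = 0.0522 to 0.0865) and without the haemoglobin-rich libraries (0.0955). The kinase gene Mapk12, which encodes the muscle p38 gamma, measured 196 ± 16.7 and 209 ± 16.2 CPM, and Dusp11 measured 162 ± 5.95 and 189 ± 10.1 CPM.

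Of 19 class B receptor, ligand and cyclic AMP genes tested for Sctr, 0 passed by edgeR (3 at an unadjusted p under 0.05). Gnas, the stimulatory G protein subunit, measured 1285 ± 109 and 1502 ± 70.9 CPM, and the adenylyl cyclases Adcy6 and Adcy9 measured 79.9 ± 3.07 and 74.1 ± 3.34 CPM, and 74.5 ± 8.76 and 62.3 ± 13.4 CPM. Zinc transporters and metallothioneins also gave 0 calls, of 20 tested (1 at an unadjusted p under 0.05), with log2 fold changes between -0.16 and 0.37. Slc30a9, Slc39a7 and Slc39a1 measured 87.4 ± 2.87 and 84.9 ± 3.73 CPM, 66.2 ± 3.37 and 61.4 ± 3.7 CPM, and 46.9 ± 2.34 and 53.8 ± 3.91 CPM. No other zinc transporter tested had a decrease near that of Slc30a2.

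The carbonyl reductases, short-chain dehydrogenases and aldo-keto reductases related to Cbr2 gave 2 higher and 0 lower of 31 tested (11 at an unadjusted p under 0.05). Dhrs4, a reductase of retinal and other carbonyls, rose 1.53-fold (20.9 ± 2.6 to 32 ± 3.37 CPM, SE 0.12, edgeR adjusted p = 0.0174). Hsd17b10, a mitochondrial dehydrogenase gene, rose 1.36-fold (54.5 ± 2.68 to 74.1 ± 5.34 CPM, SE 0.09, adjusted p = 0.0219). Leaving out WT replicate 2 or 3 ended the Dhrs4 call (edgeR adjusted p = 0.0597 and 0.0659). The Hsd17b10 call ended when any single library except TRa_mKO replicate 1 was left out (0.0582 to 0.112), without both haemoglobin-rich libraries (0.116) and with library size alone (0.0594). Dhrs7c, a reductase gene of the sarcoplasmic reticulum, measured 208 ± 13.2 and 219 ± 24.2 CPM.

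**Figure D5:**
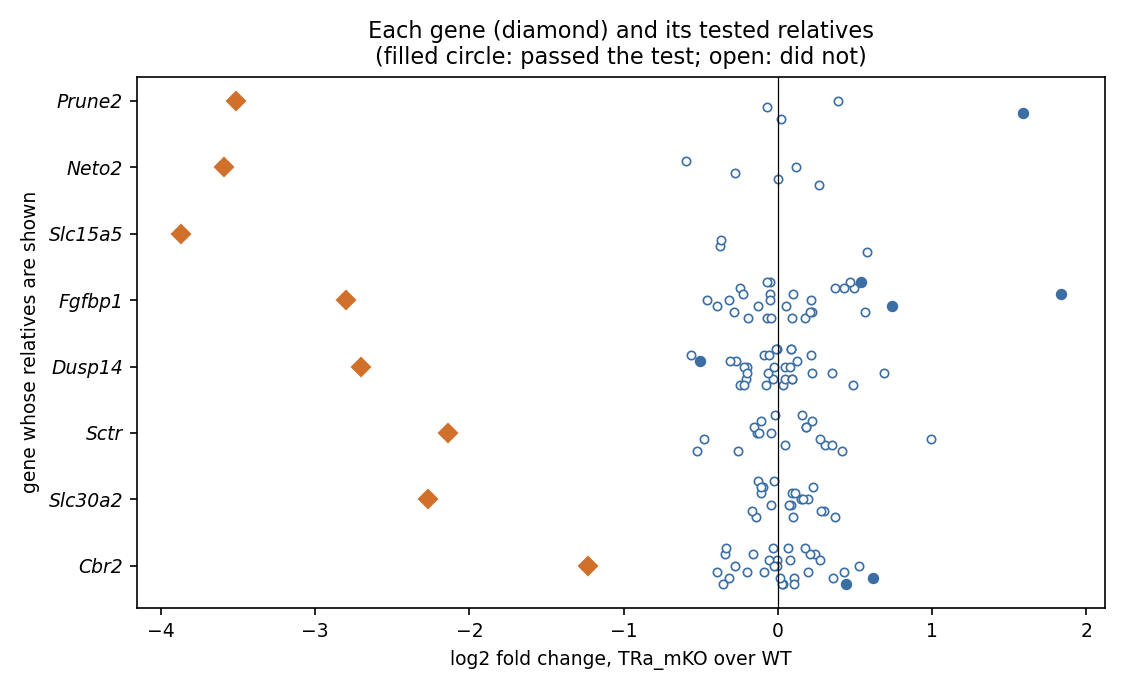
Log2 fold change of TRa_mKO over WT (x axis) for each of the 8 genes (diamonds) and its tested relatives (circles, filled where the edgeR test passed), 1 row per gene. The relatives lie between -0.60 and 1.84, and no relative reaches the diamond of its row.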

How the data were processed

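RNA of the gastrocnemius was measured in 6 mice, 3 per genotype, and the labels give every library the same batch, 1. Library preparation used poly(A) selection and dUTP strand marking, per the labels' protocols. Trimmomatic 0.39, featureCounts, FastQC 0.11.9 and MultiQC 1.12 appear in the submitters' processing notes, which list builds GRCm39, GRCm38.p6 and mm10 without assigning them. For the aligner, annotation and counting strand nothing is given in the sources used here. Reads of overlapping or antisense genes cannot be told apart. Estimated counts per gene, not normalized, were deposited by the authors, of which 9.65% to 10.0% per library were not whole; they were rounded here. Values were present for 17034 of 74693 features, and 0 value columns belonged to no sample.

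Genes were kept by filterByExpr (minimum count 10), scaled by TMM and tested two-sided in R 4.3.3 with edgeR 4.0.16 (quasi-likelihood F test, robust, genotype as the only term), with Benjamini-Hochberg adjustment over 13118 genes and a threshold of 0.05. The step was also run on counts simulated from the means and spread fitted to these libraries, with planted folds. Such counts cannot show how the test behaves with the real differences between mice. Means are ± SD over 3 libraries, and fold changes are TRa_mKO over WT unless stated. Each SE was derived from the test, as the absolute log2 fold change divided by the square root of the F statistic. Where nothing else is known of the samples, p-values set the genotype difference against the spread between these mice within a genotype, as estimated in the fit. Library pairs differed beyond sampling noise (chi-square per degree of freedom at least 7.77). Transcript lengths are those of the longest GENCODE M21 transcript, and sequences and gene order are from RefSeq GRCm38.p6. Of the list genes, 2 (Dusp29 and Styxl2) were not matched to the table.

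The 8 genes, the lists of relatives and markers and the neighbours were chosen with earlier results of these data known. The rule for named genes took the 8 genes, Thra, the relatives that passed and the 2 genes most like each of the 8. Lists with fewer passing relatives were filled with their most abundant genes up to 3. The neighbours, the genes near the ends of the ranking and the Fgfbp1 relatives that did not pass were named after their values were seen. Alternatives were other scaling, other filters, DESeq2 1.42.0, limma-voom (limma 3.58.1), a block on replicate number, leaving out single libraries or both haemoglobin-rich ones, genes with shared reads left out and the 10 most abundant genes left out. Scripts ran in R and Python 3.11.15.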

Additional observations from a re-analysis of the deposited data

How the results depend on the processing

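The log2 fold changes of the 8 genes stayed below 0 under all 16 alternatives, and their median lay between -2.85 and -2.56. A move beyond the pooled SD of log2 CPM within genotypes was seen for Slc15a5 without TRa_mKO replicate 1 (-5.32) and for Prune2 without the haemoglobin-rich libraries (-3.84). Slc30a2 (-2.81 without TRa_mKO replicate 1), Dusp14 (-2.44 without WT replicate 2) and Cbr2 (-1.11 without the haemoglobin-rich libraries) moved by more than their SE and less than that SD. The range was 10.4-fold to 39.9-fold for Slc15a5 and 2.16-fold to 2.45-fold for Cbr2. With 1 library left out, the genes called numbered 209 to 595 (135 to 331 higher, 74 to 264 lower) and the relatives called 2 to 12 (2 to 9 higher, 0 to 3 lower). The low end came without WT replicate 3 for the relatives (2 called, 0 lower) and without TRa_mKO replicate 2 for all genes (310 and 361 without WT replicate 3 or 2), and 12 relatives were called without TRa_mKO replicate 1. With both haemoglobin-rich libraries left out, 267 genes (177 higher, 90 lower) and 3 relatives (3 higher, 0 lower) were called. With library size alone, 213 genes were higher and 2 relatives lower. DESeq2 called 12 relatives (10 higher, 2 lower).

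With a replicate block, 357 genes (216 higher, 141 lower) and 4 relatives (0 lower) were called. The replicate numbers were taken as sample names only. Deviations of same-numbered libraries had correlations of -0.18, 0.00 and -0.01 (-0.176, 0.0003 and -0.0056). Differently numbered libraries of the 2 genotypes ranged from -0.172 to 0.195. With 3 libraries per genotype these values cannot exclude a pairing. Under the block Atcay, Dusp13, Hsd17b10 and Tada2a did not pass (adjusted p = 0.098, 0.0545, 0.0692 and 0.0702). Depth limits Neto2 and Slc15a5 in TRa_mKO, where a library held 9 to 17 and 4 to 32 reads.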
